A study of Mus musculus with 10 samples.

Results

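Hormad1 and Tex15 are 2 genes of meiotic prophase whose transcript levels in mouse oocytes were described here with those of Hormad2, Sycp1, Sycp2, Sycp3, Msh4, Msh5 and Mlh3. The 9 genes were listed by symbol as genes of the meiotic chromosome axis, of synapsis and of recombination. They were chosen from measured values of these libraries, since Hormad1 was lower and Tex15 higher in the aged and spermidine libraries than in the young ones. Differences from young oocytes, and the number of these 9 genes past a threshold there, are therefore given as a description that supports nothing. The comparison read as a test is that of spermidine with aged oocytes, whose difference was not itself used in the choice, though values of both groups were. All 9 were among the 18493 genes of the table, and all 9 passed the filter on low counts that left 12316 genes for testing.

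The series compared young oocytes, aged oocytes and oocytes of a spermidine group, and its design text places the comparison in work on the polyamine spermidine and the quality of aged oocytes. The young group (n = 3 libraries) carries the treatment label Control, the aged group (n = 3) the label Treatment and the spermidine group (n = 4) the label Rescue. All were germ cells of the ovary of Mus musculus. Strain, age, dose, duration, the age of the animals behind the spermidine group and the number of oocytes or animals behind a library are not given in the labels. RNA was captured by its poly(A) tail with an oligo dT primer, made into full-length cDNA by the SMART-seq2 method and amplified, so the values are levels of polyadenylated RNA. Since the labels name no separate animals, p-values measure the spread between these libraries, which may be technical.

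In prophase of the first meiotic division, homologous chromosomes are organised along a protein axis, broken and repaired in a programmed way, and joined by the synaptonemal complex. HORMAD1 and HORMAD2 sit on the axis and mark its unsynapsed stretches, SYCP2 and SYCP3 form the lateral elements that grow from it, and SYCP1 forms the transverse filaments that link the paired axes. MSH4 and MSH5 act together to stabilise recombination intermediates, MLH3 acts in resolving them as crossovers, and TEX15 is known both for repair of meiotic breaks and for transposon silencing with the piRNA pathway in male germ cells. In females these steps are completed before birth, after which oocytes stay arrested until ovulation, so the libraries describe transcripts present in cells that are past the stage at which these proteins are known to act.

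The libraries held between 24222208 and 28730815 counts, with 15336 to 15719 genes at 1 count or more. The 12 oocyte markers, among them Gdf9 and Zp3, were all tested and summed to between 27989 and 43934 CPM (counts scaled to a common library total). Markers of granulosa and cumulus cells summed to between 20.2 and 28.1 CPM over 13 genes, of which 6 were tested, and those of theca and stroma to between 0.917 and 3.96 CPM over 9 genes, of which 3 were tested. Blood and immune markers, 11 genes of which 8 were tested, summed to 12.2 to 45.5 CPM in young, 14.7 to 26.1 CPM in aged and 9.68 to 12.2 CPM in spermidine libraries, with the highest sum in young replicate 1. In young replicate 1 the haemoglobin gene Hba-a1 stood at 7.42 CPM, in young replicate 3 at 4.40 CPM and in aged replicate 1 at 3.60 CPM, while the other 7 libraries had 0.0758 CPM or less. Of the 13 granulosa and cumulus markers, 7, among them Amh and Foxl2, were at 0 in at least 1 library. The other 6 were above 0 in all libraries, led by Cyp19a1 at 8.81 to 16.7 CPM and Nr5a2 at 3.63 to 8.15 CPM. Aged replicate 1 stood apart in that its deviations rose with transcript length (r = 0.327 across 11997 genes, which are not independent replicates), followed by spermidine replicate 1 (r = 0.130), against -0.176 to -0.0922 in the young libraries and -0.107 to 0.0447 in the others. The trend with GC content was strongest in aged replicate 3 (r = 0.379), followed by aged replicate 2 (r = 0.260) and, in the other direction, young replicate 3 (r = -0.260), and it lay between -0.198 and 0.197 in the other 7 libraries. The part of these differences in the results below was not tested, except where a corrected value or a value without such a library is given.

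Hormad1 was lower in aged than in young oocytes, and its 4 spermidine libraries lay above 2 of the 3 aged ones and below all young ones. Hormad1 (Gene ID 67981, chromosome 3) stood at 78.3, 55.9 and 61.1 CPM in young replicates 1 to 3 and at 23.2, 13.6 and 13.0 CPM in aged replicates 1 to 3. In spermidine replicates 1 to 4 it stood at 32.3, 23.8, 21.7 and 31.4 CPM. The young libraries did not overlap with either other group, and aged replicate 1 lay between spermidine replicates 3 and 2. The means were 65.1 CPM ± 11.7 (SD, n = 3) in young, 16.6 CPM ± 5.75 (SD, n = 3) in aged and 27.3 CPM ± 5.31 (SD, n = 4) in spermidine oocytes. The fitted log2 fold change was -1.97 (SE 0.25, fold 0.255) for aged minus young and -1.25 (SE 0.22, fold 0.420) for spermidine minus young. Both comparisons use the same 3 young libraries and chose the gene. Since the number of oocytes behind a library is not given, fewer cells carrying the transcript and less of it per cell cannot be told apart.

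Hormad2 (Gene ID 75828, chromosome 11), which encodes the other axis HORMA-domain protein of the set, was low in all groups. It stood at 2.44, 2.55 and 2.05 CPM in young, 2.202, 1.90 and 2.35 CPM in aged and 1.98, 1.92, 1.66 and 2.26 CPM in spermidine oocytes. The 3 groups overlapped in this gene, on 41 to 71 counts per library.

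**Figure D1:**
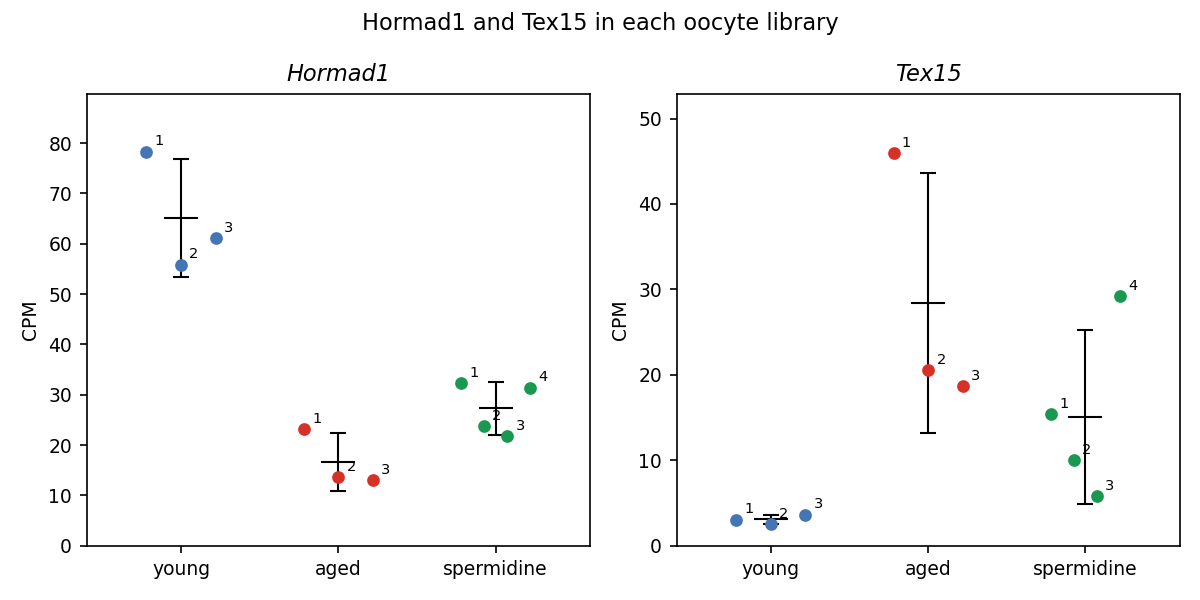
CPM of Hormad1 (left) and Tex15 (right) on linear axes that start at 0, with 1 point per library, its replicate number beside it, and the group mean with SD as bars. Young libraries of Hormad1 lie at 55.9 CPM or more and all others at 32.3 CPM or less, while young libraries of Tex15 lie at 3.65 CPM or less and all others at 5.83 CPM or more.

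The 250 bases before the start of Hormad1 and of Sycp3 are shown because they were the only ones among the 8 of 9 members with an entry in the RefSeq promoter table (Tex15 has none) to hold both motifs searched. The motifs were chosen after the sequences were seen. They are the E-box with the letters CACGTG, which reads the same on both strands, and the E2F core GCGGGAA, searched on both strands (its reverse complement is TTCCCGC), and they do not overlap each other here. Capitals mark the motifs, and both sequences read 5′ to 3′ on the plus strand of GRCm38.p6, which is not the mm9 build that the submitters' processing notes name. The Hormad1 window is chr3:95559427-95559676 and the Sycp3 window chr10:88459337-88459586.
Hormad1: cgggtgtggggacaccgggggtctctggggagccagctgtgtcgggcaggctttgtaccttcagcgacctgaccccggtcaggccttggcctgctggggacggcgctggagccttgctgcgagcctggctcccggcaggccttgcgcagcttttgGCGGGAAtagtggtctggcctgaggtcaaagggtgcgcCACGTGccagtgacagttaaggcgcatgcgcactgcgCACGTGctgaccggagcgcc
Sycp3: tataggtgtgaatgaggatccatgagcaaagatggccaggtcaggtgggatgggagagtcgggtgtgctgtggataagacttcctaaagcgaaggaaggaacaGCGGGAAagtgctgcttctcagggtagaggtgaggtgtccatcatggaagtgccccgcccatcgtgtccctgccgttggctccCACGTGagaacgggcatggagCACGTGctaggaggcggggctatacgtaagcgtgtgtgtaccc

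In Hormad1 the E-boxes begin 57 and 20 bases and the E2F core 95 bases before the start, and in Sycp3 the E-boxes begin 64 and 43 bases and the E2F core 147 bases before it. Sycp1 holds 1 E-box, 94 bases before its start, and Msh5 1 E2F core, 65 bases before its start. Over 27025 promoters of the same length, 6.05% held an E-box, 3.84% an E2F core and 0.33% both. The Hormad1 window has 19 CpG dinucleotides and the Sycp3 window 12, against a median of 6 over all promoters. Of all promoters, 80.4% had fewer than Hormad1 and 66.2% fewer than Sycp3. Among members without both motifs, Msh5 had 22, Sycp1 17, Mlh3 15, Hormad2 10, Sycp2 7 and Msh4 4. A match describes these letters only, and binding was not measured. Of the genes that share both motifs, Hormad1 differed by -1.97 and Sycp3 by -0.06 on the log2 scale between aged and young oocytes. Whether the motifs bear on these levels was not tested.

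Tex15 was lowest in young oocytes and spread widely within the aged and the spermidine group. Tex15 (Gene ID 104271, chromosome 8) stood at 3.04, 2.55 and 3.65 CPM in young replicates 1 to 3, on 66 to 82 counts, and at 45.9, 20.6 and 18.7 CPM in aged replicates 1 to 3. In spermidine replicates 1 to 4 it stood at 15.4, 9.97, 5.83 and 29.2 CPM. The young libraries did not overlap with either other group, while spermidine replicate 4 lay above aged replicates 2 and 3. The means were 3.08 CPM ± 0.550 (SD, n = 3), 28.4 CPM ± 15.2 (SD, n = 3) and 15.1 CPM ± 10.2 (SD, n = 4). The fitted log2 fold change was 3.21 (SE 0.54, fold 9.24) for aged minus young and 2.297 (SE 0.51, fold 4.91) for spermidine minus young. In a GRCm38 annotation the longest transcript of Tex15 has 8405 bases and its median transcript length is 4014 bases. Over tested genes, the median transcript length had a median of 2124 and a 90th percentile of 4896 bases. The highest value of Tex15 was in aged replicate 1, the library whose values rose most with transcript length. Without that library the difference between aged and young was 2.63, and with a correction for length and GC content it was 3.08, on the log2 scale.

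Sycp2 and Sycp1 overlapped between all groups, and Sycp3 was high in 3 of 4 spermidine libraries. Sycp2 (Gene ID 320558, chromosome 2) stood at 25.1, 22.8 and 30.5 CPM in young, 40.1, 25.2 and 22.4 CPM in aged and 30.4, 26.2, 24.2 and 23.7 CPM in spermidine oocytes. Its highest value was in aged replicate 1, and all groups overlapped. Sycp3 (Gene ID 20962, chromosome 10) stood at 51.5, 30.9 and 44.4 CPM in young and 47.1, 32.0 and 42.1 CPM in aged oocytes. In spermidine replicates 1 to 4 it stood at 75.5, 81.8, 59.3 and 33.4 CPM, so that replicates 1 to 3 lay above all young and aged libraries and replicate 4 lay among them. The gene body of Sycp3 overlaps that of Chpt1 on the other strand. Whether their exons overlap was not looked at and strand use in counting is not known, so a share of Chpt1 reads in the Sycp3 counts was not tested. Sycp1 (Gene ID 20957, chromosome 3) stood at 5.62, 3.37 and 4.27 CPM in young, 4.04, 3.45 and 3.38 CPM in aged and 4.72, 5.18, 3.28 and 4.07 CPM in spermidine oocytes, with all groups overlapping.

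Of the recombination genes Msh4, Msh5 and Mlh3, only Msh4 had more than 49 counts in any library. Msh4 (Gene ID 55993, chromosome 3) stood at 19.3, 24.0 and 20.01 CPM in young, 30.9, 26.6 and 25.5 CPM in aged and 22.6, 25.1, 23.7 and 28.0 CPM in spermidine oocytes. Its aged libraries lay above all young ones, by 0.39 on the log2 scale (SE 0.15), without overlap. Mlh3 (Gene ID 217716, chromosome 12) stood at 0.875, 1.01 and 0.845 CPM in young, 1.502, 0.986 and 0.697 CPM in aged and 1.32, 1.78, 1.498 and 1.34 CPM in spermidine oocytes. Its spermidine libraries lay above all young ones, by 0.70 on the log2 scale (SE 0.28), on 19 to 49 counts per library. Msh5 (Gene ID 17687, chromosome 17) stood at 0.507, 0.180 and 0.178 CPM in young, 0.200, 0.455 and 0.367 CPM in aged and 0.150, 0.616, 0.364 and 0.652 CPM in spermidine oocytes. These Msh5 values rest on 4 to 17 counts per library, where 4 counts have an exact 95% Poisson interval of 1.09 to 10.2 counts and 17 counts one of 9.90 to 27.2 counts, which covers counting error only. The Msh5 groups overlapped in every comparison.

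**Figure D2:**
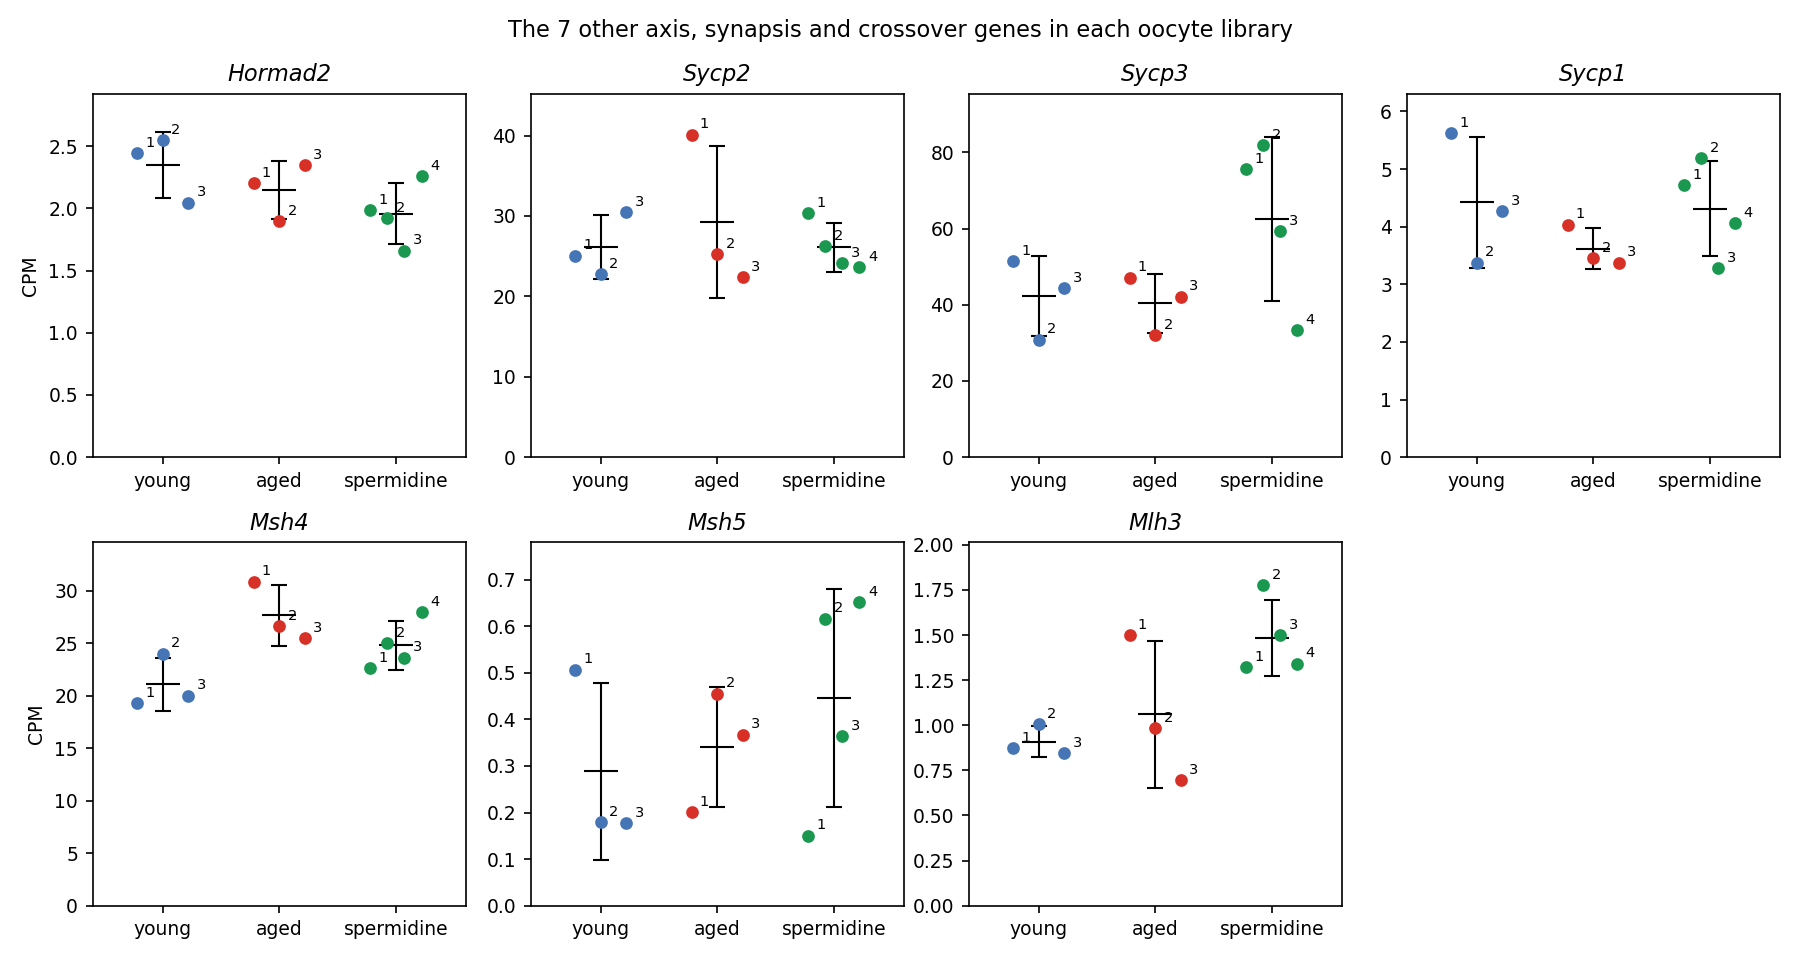
CPM of the 7 other genes in each library, on linear axes that start at 0 and differ between panels, with replicate numbers beside the points and the group mean with SD as bars. Spermidine replicates 1 to 3 of Sycp3 lie at 59.3 CPM or more and the other 7 libraries at 51.5 CPM or less.

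Against young oocytes, Hormad1 and Tex15 were the members past the threshold of an adjusted p of 0.05 in each comparison, 2 of 9 in aged minus young, where 17.8% of all tested genes were called, and 2 of 9 in spermidine minus young, where 5.37% were. Nothing is read from these counts or from how they move, since the young libraries chose the genes. Without young replicates 1, 2 or 3 the count in spermidine minus young was 1, with Tex15 short of the threshold at log2 fold changes of 2.25, 2.17 and 2.38. Groups did not overlap in 3 of 9 members in aged minus young (Hormad1 lower, Tex15 and Msh4 higher), where this held for 40% of all genes. The same number of members did not overlap in spermidine minus young (Hormad1 lower, Tex15 and Mlh3 higher), where it held for 21% of all genes. The members' median log2 fold change was 0.16 in aged minus young and 0.23 in spermidine minus young, beside 0.10 and 0.04 over all genes tested. The log2 fold changes of the other 6 members lay between -0.28 (Sycp1) and 0.26 (Msh5) in aged minus young.

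**Figure D3:**
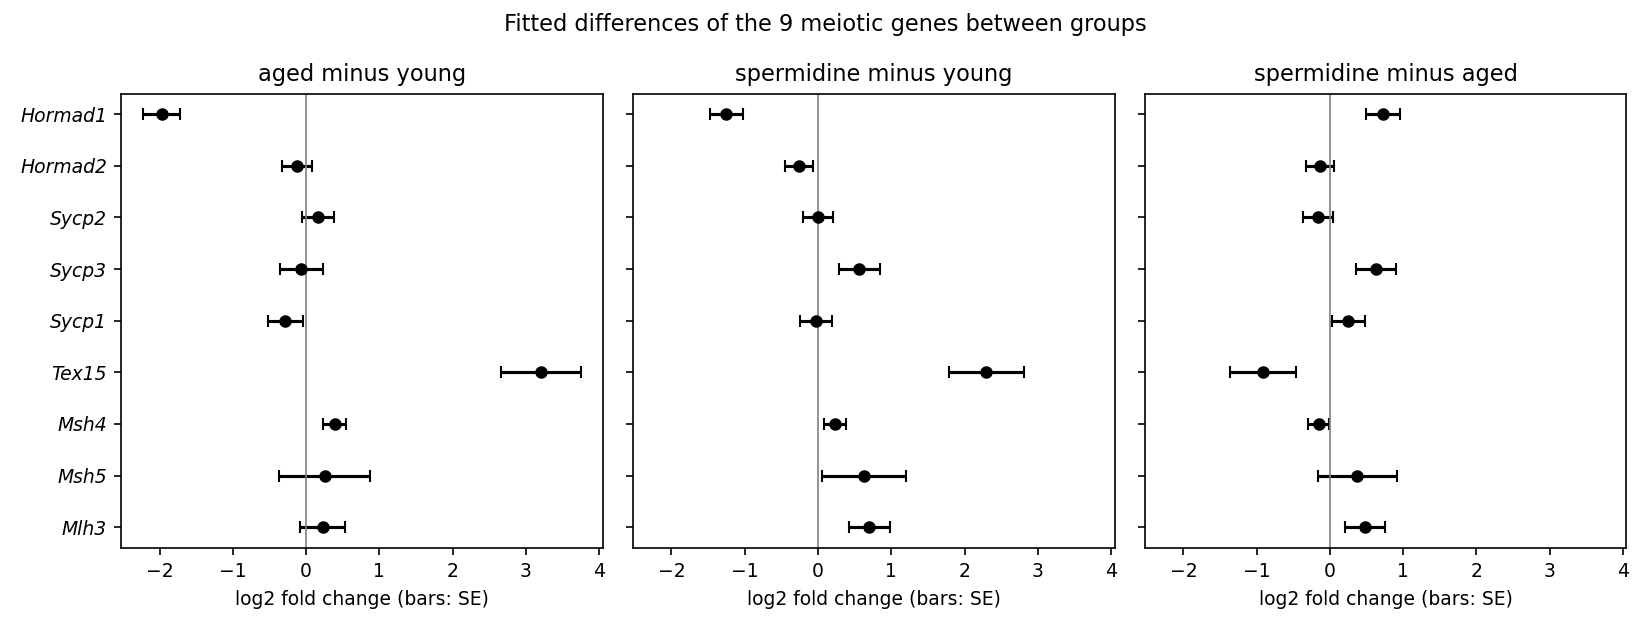
Fitted log2 fold changes of the 9 genes in the 3 comparisons, with points for the estimate and bars for its SE, ordered by role from axis to crossover genes. Hormad1 lies at -1.97 and Tex15 at 3.21 in aged minus young, both lie on the same side of 0 in spermidine minus young, and in spermidine minus aged Hormad1 lies at 0.72 and Tex15 at -0.91.

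Between spermidine and aged oocytes, a difference not itself used to choose the genes, no member passed edgeR's quasi-likelihood test. The choice did use the aged and spermidine values of Hormad1 and Tex15 against young, so their p-values here may not be independent of it. At an adjusted p under 0.05 edgeR called 0 of 9, where 4.89% of all tested genes were called. DESeq2 called 1 member, beside 1365 of all 12316 genes. The unadjusted p of 2 members was under 0.05 by edgeR, as it was for at least 2776 of all 12316 genes. No excess among the members is read from these counts. In 0 of 9 members did the groups not overlap, where this held for 19.9% of all genes. The members' median log2 fold change was 0.25, beside -0.03 over all genes.

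Hormad1 was 1.64-fold higher with spermidine (95% interval 1.16 to 2.33, log2 fold change 0.72, SE 0.23, adjusted p = 0.0869), short of the threshold, and it was the 1 member that DESeq2 called (adjusted p = 0.0442). Its value moved with each aged library. Without aged replicate 1, the highest, the log2 fold change was 1.04 (adjusted p = 0.0172). It was 0.59 without aged replicate 2 (adjusted p = 0.246) and 0.57 without aged replicate 3 (adjusted p = 0.235). With a correction for length and GC content it was 0.52 (adjusted p = 0.164), the lowest estimate of the alternatives tried. Over these alternatives its adjusted p ran from 0.0172 to 0.246. Tex15 had a fold of 0.531 (95% interval 0.271 to 1.04, log2 fold change -0.91, SE 0.45, adjusted p = 0.235). The value of Tex15 was -0.38 without aged replicate 1 (adjusted p = 0.662) and -1.45 without spermidine replicate 4 (adjusted p = 0.0415), so 1 library on either side decided its size. Sycp3 was 1.55-fold higher (95% interval 1.02 to 2.36, log2 fold change 0.63, SE 0.28, adjusted p = 0.193). Without spermidine replicate 4 its log2 fold change was 0.84 (adjusted p = 0.0372), and with a correction for length and GC content it was 0.33 (adjusted p = 0.404). Mlh3 had a fold of 1.39 (95% interval 0.920 to 2.10, adjusted p = 0.312).

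The intervals of the other 5 members all included 1. Hormad2 had a fold of 0.911 (95% interval 0.681 to 1.22), Sycp2 one of 0.893 (0.659 to 1.21) and Msh4 one of 0.898 (0.724 to 1.11). Sycp1 had a fold of 1.19 (0.855 to 1.66) and Msh5 one of 1.297 (0.573 to 2.94). A 2-fold difference in either direction lay outside the intervals of Hormad2, Sycp1, Sycp2 and Msh4, and a 2-fold higher level lay inside that of Msh5. In the authors' deposited table the log2 fold change of spermidine against aged is 0.70 for Hormad1 (q-value 0.116), -0.93 for Tex15 (q-value 0.340) and 0.62 for Sycp3 (q-value 0.306).

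**Figure D4:**
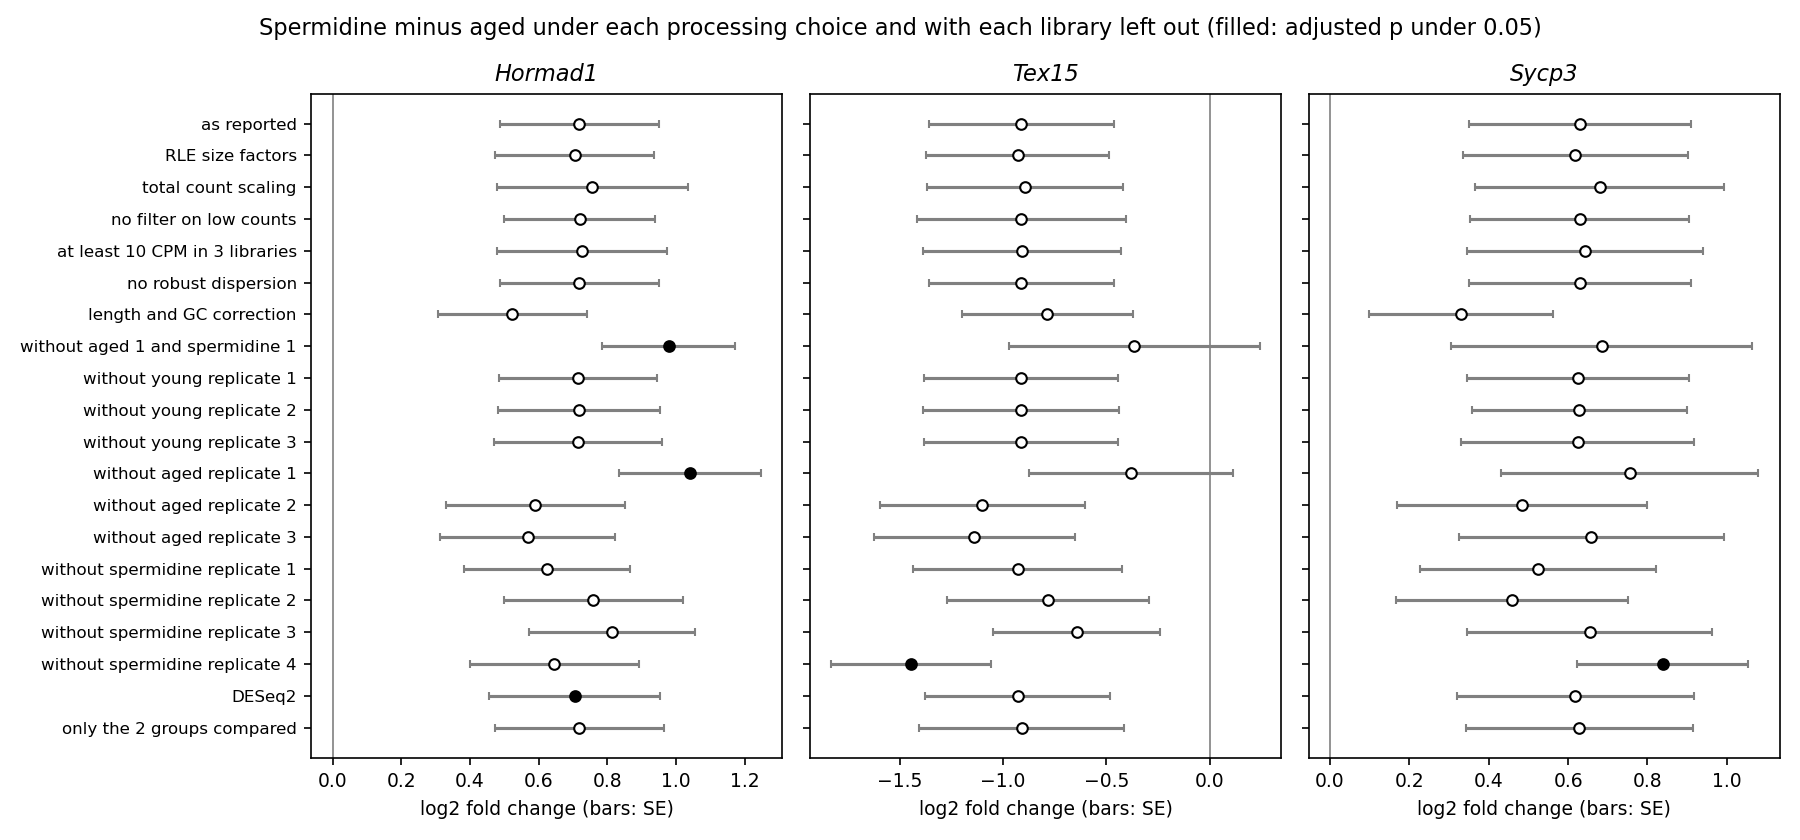
Log2 fold change of spermidine minus aged for Hormad1, Tex15 and Sycp3 (points, with SE as bars) as reported and under each alternative setting or left-out library named on the vertical axis. The fit with a replicate block is not drawn. Filled points have an adjusted p under 0.05, and Hormad1 reaches 1.04 without aged replicate 1 while Tex15 moves to -0.38 without it.

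Per kilobase of the longest annotated transcript, Hormad1 had the highest mean level of the 9 genes in young oocytes and Sycp3 in the other groups. In young oocytes Hormad1 stood at 43.1 CPM per kb ± 7.77 (SD, n = 3) and Sycp3 at 36.2 CPM per kb ± 8.97 (SD, n = 3), with overlapping libraries. Msh4 (6.35 CPM per kb) and Sycp2 (4.57 CPM per kb) followed, then Sycp1 (1.29 CPM per kb) and Hormad2 (1.19 CPM per kb), whose libraries overlapped, and Tex15 (0.366 CPM per kb). Mlh3 (0.166 CPM per kb) and Msh5 (0.0998 CPM per kb) were lowest and overlapped. In aged oocytes Sycp3 stood at 34.6 CPM per kb and Hormad1 at 10.98 CPM per kb, where its libraries overlapped with those of Msh4 (8.32 CPM per kb). Tex15, at 3.38 CPM per kb, overlapped with Sycp2 (5.12 CPM per kb) and lay above Hormad2 (1.09 CPM per kb) and Sycp1 (1.05 CPM per kb). In spermidine oocytes the order was Sycp3 (53.5 CPM per kb), Hormad1 (18.1), Msh4 (7.47), Sycp2 (4.57) and Tex15 (1.80), all in CPM per kb, and Tex15 overlapped with Sycp1 (1.25 CPM per kb). By the median transcript length in place of the longest, Msh4 and Sycp2 changed places in all 3 groups, and Sycp1 and Hormad2 in young and spermidine oocytes.

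Other genes of these pathways came from 8 lists with 100 entries, of which 94 were in the table and 80 tested, and they too were chosen with earlier results of these data known. In aged minus young oocytes 9 of 80 rose and 7 fell, 20% of them, beside the 17.8% given for all genes, with a median log2 fold change of 0.10. Among the axis and telomere genes Spdya (1.65, SE 0.46) and Sun1 (0.64, SE 0.17), which act where telomeres meet the nuclear envelope, rose. Spdya was low, at 0.322, 0.144 and 0.0889 CPM in young and 0.767, 0.569 and 0.404 CPM in aged libraries. Majin, of the same attachment, fell (-1.92, SE 0.32), from 2.95, 4.16 and 3.42 CPM in young to 0.634, 0.720 and 1.43 CPM in aged libraries. Tex12 (-0.85, SE 0.23) fell as 1 of 3 genes of the central region and Rec114 (-0.70, SE 0.19) as 1 of 7 genes of break formation. Of 13 strand exchange genes Mnd1 (0.83, SE 0.20) and Brca2 (0.83, SE 0.24) rose. The call of Brca2 was lost in 6 of 20 alternatives, among them that without aged replicate 1, and its lowest estimate was 0.39. Of 16 crossover genes Cntd1 (-1.25, SE 0.24), Tex11 (-1.11, SE 0.20) and Mcm8 (-0.53, SE 0.17) fell and Helq (0.52, SE 0.15) rose. The calls of Cntd1 and Tex11 held in all 20 alternatives, while that of Mcm8 was lost in 11 of 19 and that of Helq in 7 of 20. The germ cell helicase gene Ddx4 (1.57, SE 0.25) was the 1 called gene of 7 of meiotic entry, and of 5 cohesin genes edgeR and DESeq2 each called 0, with an unadjusted p under 0.05 in 1. Of 19 piRNA genes Piwil2 (1.65, SE 0.34), Tdrd9 (1.03, SE 0.21), Piwil1 (0.68, SE 0.21) and Ddx4, which is in both lists, rose and Gtsf1 (-0.97, SE 0.17) fell, with Piwil1 named after its value was seen. The count of 16 was 8 without young replicate 1, 10 without young replicate 2 and 9 without young replicate 3.

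Between spermidine and aged oocytes 0 of these 80 genes rose by edgeR and 3 fell, 3.75% of them beside the 4.89% given for all genes. At an unadjusted p under 0.05 by edgeR, 11 of the 80 were higher and 6 lower, beside at least 2776 of all 12316 genes in either direction. DESeq2 called 3 of the 80 higher and 5 lower, beside 653 higher and 712 lower of all 12316. Ddx4 fell (-1.13, SE 0.23, adjusted p = 0.0220), from 74.5, 100.5 and 58.2 CPM in aged to 26.6, 32.3, 36.1 and 46.7 CPM in spermidine libraries, without overlap. The RNA-binding protein gene Dazl (-0.70, SE 0.15, adjusted p = 0.0245) and the helicase gene Helq (-0.64, SE 0.13, adjusted p = 0.0248) fell as well. None of the 3 passed without aged replicate 2, spermidine replicate 2 or spermidine replicate 3, and Dazl was also lost without aged replicates 1 or 3. Without spermidine replicate 4 the count was 9. In spermidine minus young oocytes 4 of 80 rose and 4 fell, 10% of them beside the 5.37% given for all genes. Mnd1 (1.07, SE 0.19), Piwil2 (1.25, SE 0.33), Rnf212b (1.14, SE 0.28) and Tdrd9 (0.80, SE 0.20) rose, and Cntd1 (-1.28, SE 0.22), Majin (-1.21, SE 0.28), Mov10l1 (-0.76, SE 0.20) and Gtsf1 (-0.63, SE 0.15) fell. That count was 2 without young replicates 1 or 3 or spermidine replicate 4, 3 without spermidine replicates 2 or 3, and 4 without young replicate 2, and the calls of Mnd1 and Cntd1 held with each library left out.

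**Figure D5:**
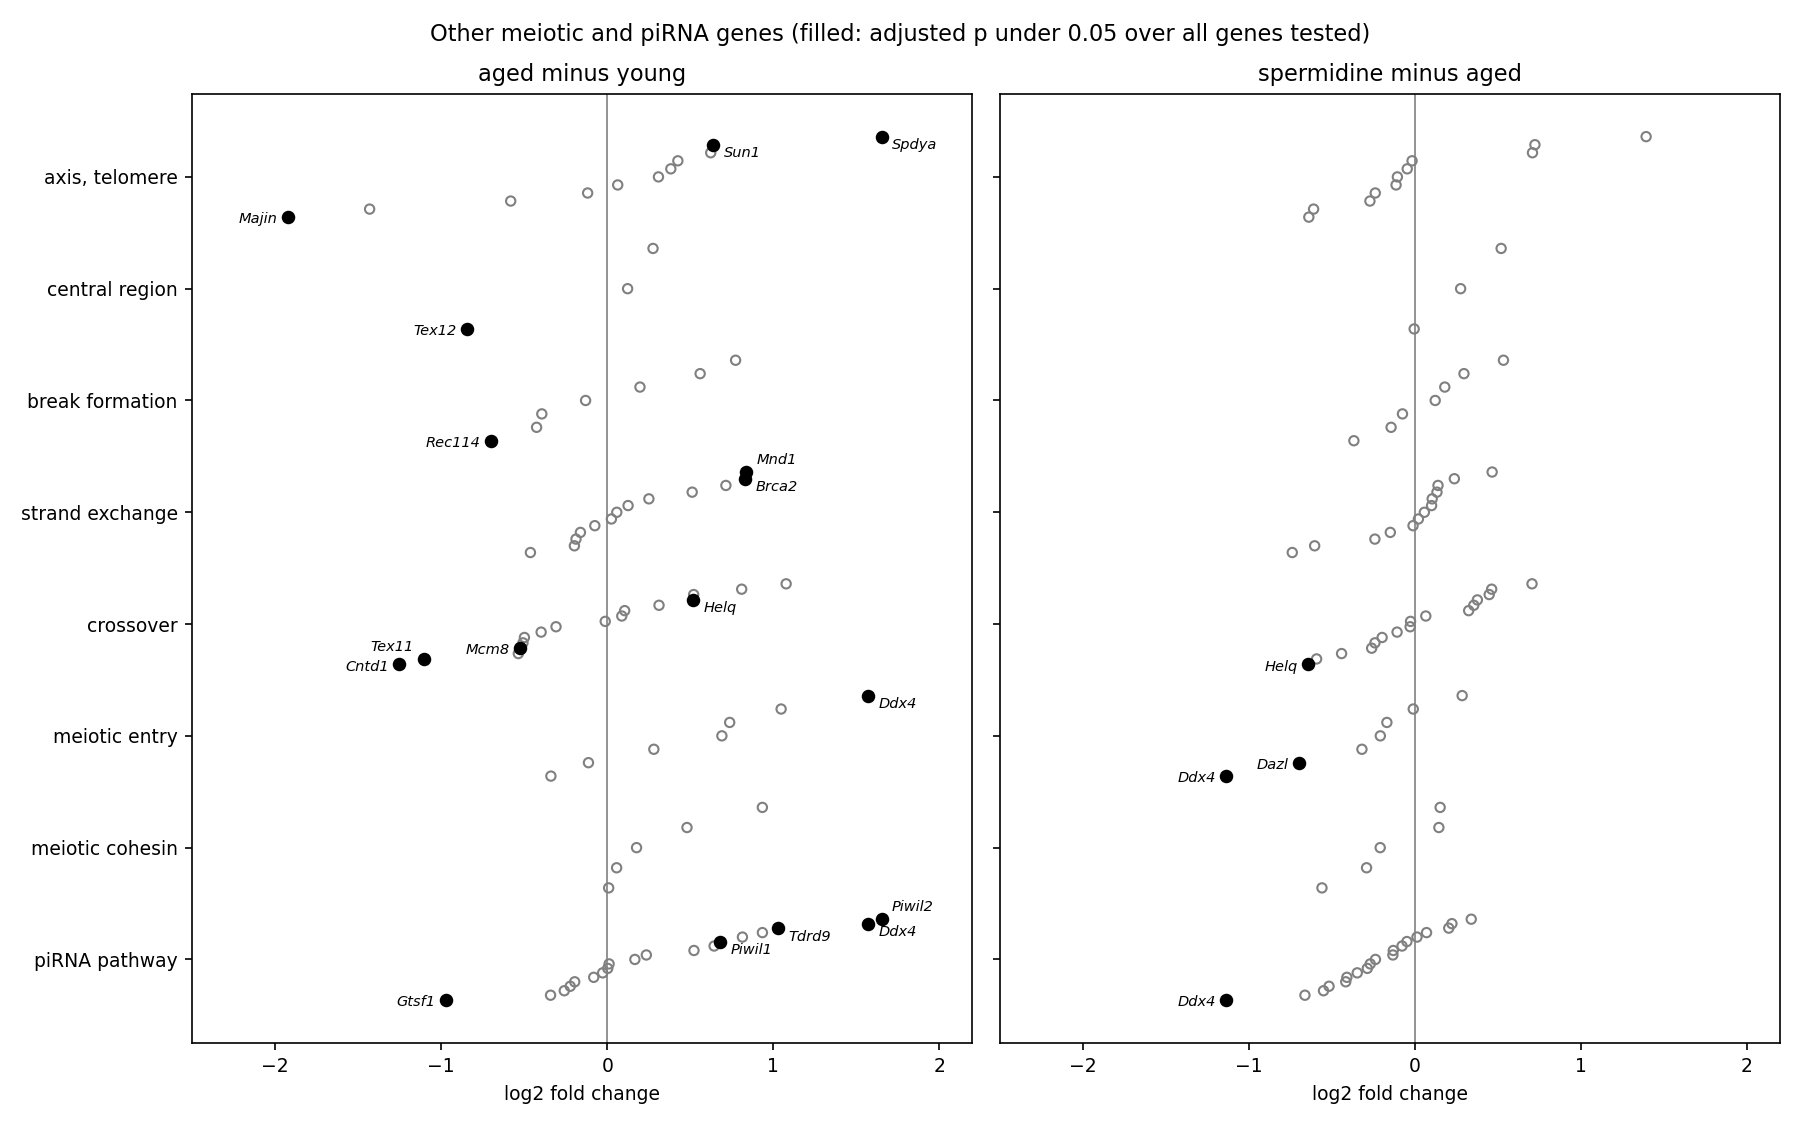
Log2 fold changes of the 80 other tested genes by list for aged minus young (left) and spermidine minus aged (right), where filled points have an adjusted p under 0.05 over all genes tested and vertical offsets within a list order the genes by value. At left 9 genes lie above and 7 below 0 among the filled points, Ddx4 being drawn in both of its lists, and at right the filled points are Ddx4, Dazl and Helq, all below 0.

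The genes whose log2 CPM was most like that of Hormad1 over the 10 libraries, among 6791 genes whose mean reached 5 CPM, were Srpk2 (r = 0.949), Mitd1 (r = 0.942), Top2b (r = 0.940), Lyn (r = 0.939) and Scimp (r = 0.937). For Tex15 they were Lrch1 (r = 0.975), Sufu (r = 0.972), Stx2 (r = 0.963), Dynlt1a (r = 0.959), which has near-identical copies between which reads can be split, and Tollip (r = 0.956). These correlations are a description over libraries of 3 groups, and the libraries share the differences between groups, the length trends and the scaling. Among the members, Tex15 was most like Msh4 (r = 0.831) and Hormad1 most like Sycp1 (r = 0.512), while Hormad1 and Tex15 had r = -0.708.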

How the data were processed

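RNA sequencing was done on 10 oocyte libraries, grouped by their titles. The values the authors deposited for each library, called read counts in the file headers, are expected counts, of which 15.9% to 16.7% were not whole. It also holds the authors' log2 fold changes with their p-values and q-values. The submitters' processing notes name mm9, RSEM 1.3.1, Bowtie2 2.3.4.3 and DESeq2 1.4.5, without saying what each was used for or in which order. Strand use in counting is not given in the sources used here.

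Expected counts were rounded. In edgeR 4.0.16 (R 4.3.3), filterByExpr left 12316 genes, TMM scaled the libraries, and a single quasi-likelihood model with robust dispersion and 1 mean for each of the 3 groups gave the F tests. Benjamini-Hochberg adjustment ran over all genes of a comparison, and the threshold was 0.05. SEs come from the F statistic, and 95% intervals from the t distribution with the degrees of freedom of the fit. CPM were computed on TMM-scaled totals. Totals of 24222208 to 28730815 counts set the precision of low genes, and reads carried no molecular identifiers in the sources used here.

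The members and lists were chosen with earlier results of these data known. The text names all members, up to 4 called genes per list and comparison by smallest p, and the 5 genes most like Hormad1 and Tex15 by Pearson r of log2 CPM (prior count 2), leaving out predicted genes. Alternatives were RLE factors, total count scaling, no filter, at least 10 CPM in 3 libraries, no robust dispersion, a replicate block, a length and GC correction, each library left out, aged replicate 1 and spermidine replicate 1 left out together, DESeq2 1.42.0 and only the 2 groups compared. For 11997 tested genes, length and GC content were looked up by Gene ID in an annotation of GRCm38, which is not the mm9 build. The only coordinates given are those of the RefSeq promoters. List entries with no matching symbol in the table were not analysed here.

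The procedure was tested on simulated data. For spermidine minus aged, with 12152 genes in the fit, genes with a log2 change of 1 were recovered in 59% of cases and those with a log2 change of 2 in 99%, and 6 of 164 calls were false. These rates describe the simulated data and may not carry over to the libraries here. Plots were made in matplotlib 3.10.9 under Python 3.11.15.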

Additional observations from a re-analysis of the deposited data

Results flagged for a closer look

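Of 27 genes named by the rule, which leaves out Piwil1, the 4 spermidine libraries of Brca2, a gene of strand exchange, held 1 value far from the others. Brca2 stood at 101 CPM in spermidine replicate 1 and at 79.0, 78.3 and 74.9 CPM in spermidine replicates 2, 3 and 4. The gap from replicate 1 to the next value was 0.844 of the whole range of the group, above the 95% critical value of Dixon's test for 4 samples. Chance gives such a gap in about 1 in 20 groups, and 27 genes were looked at. The highest value of Brca2 in all libraries was in aged replicate 1, at 204 CPM. None of the 9 meiotic prophase genes chosen for description had such a gap.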

How the results depend on the processing

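The members' counts against young oocytes restate how the genes were chosen and are no sign of stability. In spermidine minus young the count of 2 became 1 with no filter on low counts, 1 when aged replicate 1 and spermidine replicate 1 were both left out, and 1 to 2 with 1 library left out. In spermidine minus aged, where 0 members were called, it was 1 with DESeq2, 1 when those 2 libraries were both left out, and 0 to 2 with 1 library left out. The values of Sycp2 and Msh4 turned from below to above 0 when both were left out (0.0836 and 0.00315), and that of Sycp2 ran from -0.32 to 0.13 with 1 library left out. The cause of these shifts was not tested.

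For the pathway genes of the 8 lists, the 3 calls of spermidine minus aged became 5 with at least 10 CPM in 3 libraries (47 genes tested in place of 80), 6 with the length and GC correction, 8 with DESeq2, 0 with only the 2 groups compared, and 0 to 9 with 1 library left out. The 16 calls of aged minus young ran from 8 to 19 with 1 library left out. The 8 calls of spermidine minus young became 5 with total count scaling, 3 among those 47 genes, and 2 to 10 with 1 library left out. Of the 15 calls in aged minus young named by the rule, which leaves out Piwil1, 7 held under all alternatives that could be run, as did 2 of 8 in spermidine minus young and 0 of 3 in spermidine minus aged. The 7 were Cntd1, Ddx4, Gtsf1, Majin, Piwil2, Tdrd9 and Tex11, and the 2 were Cntd1 and Mnd1.

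Over all genes, the 602 calls of spermidine minus aged became 259 with total count scaling, 1365 with DESeq2, 124 with only the 2 groups compared, and 101 to 1127 with 1 library left out. The 2188 of aged minus young became 1179, among 5784 genes tested in place of 12316, with at least 10 CPM in 3 libraries and 830 to 2362 with 1 library left out. The 661 of spermidine minus young became 273 among the same 5784 genes, 1100 with DESeq2, and 283 to 877 with 1 library left out. Total count scaling changed the split from 1196 higher and 992 lower to 1237 and 405 in aged minus young, and from 425 and 236 to 605 and 126 in spermidine minus young. Under it the median over all genes was 0.24 and 0.23 on the log2 scale in these comparisons, from 0.10 and 0.04.

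Libraries of different groups share replicate numbers, but the labels do not say that a number marks a shared animal or day. Of 9 same-number pairs, 3 had a correlation of deviations over 0.1 (from -0.275 to 0.408), and 3 of 9 libraries correlated best with their own number. The highest was between aged replicate 1 and spermidine replicate 1. These values cannot decide whether same-number samples were paired, nor can a fit with the number as a block. Number 4 is in the spermidine group only, so that fit in effect leaves out spermidine replicate 4. It called 3 members in spermidine minus young and 3 in spermidine minus aged. The latter were Hormad1 (0.67, adjusted p = 0.0304), Tex15 (-1.42, adjusted p = 0.0180) and Sycp3 (0.86, adjusted p = 0.0305). Without that library and with no block they stood at 0.65, -1.45 and 0.84, and Hormad1 did not pass. With the block, pathway genes had 9 calls in spermidine minus aged and 3 in spermidine minus young, and all genes 1000 in spermidine minus aged.

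Msh5, Mlh3, Hormad2 and Sycp1 are too low for the filter of 10 CPM, and in Msh5 the 4 to 17 counts per library limit the precision.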
